A study of Homo sapiens with 6 samples.

Results

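Transcripts of 10 plasma membrane amino acid transporters were followed in BJ, a human fibroblast cell line derived from foreskin, on day 8 of reprogramming towards pluripotency. The genes were SLC7A1, SLC7A2, SLC7A5, SLC7A11, SLC3A2, SLC1A4, SLC1A5, SLC38A1, SLC38A2 and SLC43A1, a list drawn up by symbol with earlier results of these data known. All 10 were among the 27788 gene symbols of the deposited table, and all 10 were among the 12210 genes tested, which had a mean of at least 1 FPKM (fragments scaled to transcript length and to library size) over the 6 libraries. Every group had received the same lentiviral polycistronic constructs, named O2S and K2M, which deliver OCT4, SOX2, KLF4 and MYC, and uninfected cells are not analysed here. The cells had grown in serum, had been moved onto Matrigel, and had then been given human embryonic stem cell medium, which contained glutamine, non-essential amino acids, basic FGF and beta-mercaptoethanol. They were trypsinized, stained and sorted by antibodies to CD13, the product of ANPEP, and CD201, the product of PROCR, into 3 groups of 2 libraries. Double-negative cells lacked both proteins, CD201-only cells lacked CD13 and carried CD201, and double-positive cells carried both.

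Amino acids cross the plasma membrane on several families of carriers with overlapping substrates. The CD98 heavy chain, the product of SLC3A2, carries no substrate itself but pairs through a disulfide bond with a light chain of the SLC7 family, which forms the pore and sets the substrate. Other SLC7 members, the cationic amino acid transporters, work without a heavy chain. The SLC1 and SLC38 members bring in neutral amino acids, glutamine among them, together with sodium, and SLC43A1 lets large neutral amino acids pass by facilitated diffusion. When amino acids are short, the translation factor kinase GCN2 raises the transcription factor ATF4, many of whose target genes encode such carriers and enzymes of amino acid synthesis. Fibroblasts and pluripotent cells in culture both rely on outside glutamine and cystine.

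Replicate libraries lay closer to each other than to any other group, with a lowest correlation of 0.9919 within and a highest of 0.9807 between groups. FPKM values summed to between 489152 and 521352 per library, and the relative depth, read from the steps between the lowest values, ran from 0.732 to 1.0. The median coefficient of variation between replicates was 5.21% to 6.28% for genes from 1 to 10 FPKM and 0.967% to 1.97% for genes over 100 FPKM. From double-negative over CD201-only to double-positive cells, ANPEP was at 36.0, 28.9 and 155 FPKM and PROCR at 17.3, 47.45 and 51.9 FPKM. The labels do not say whether the 2 libraries of a group came from separate cultures, so the p-values measure the spread between these libraries, which may be technical.

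Stretches around the annotated starts of the transporter genes are shown because 3 short elements with known regulators of these carriers can be looked for in them. RefSeq windows on GRCh38.p14, from 250 bases before to 50 bases after an annotated start, were at hand for 8 of the 10 genes. SLC7A2 and SLC7A11 had no entry. The amino acid response element, the site of ATF4 with a C/EBP partner, was searched as TGATGNAA on both strands. It was found in 5 of these 8 genes, or 5 of their 15 windows, against 2.55% of the 9439 tested genes that had a window and 1.89% of their windows. Of the 17 genes of the amino acid starvation response with a window, 3 held it, and of 21 other transporter genes 1 did. Each match is printed on the strand of the gene, with the element in capitals.
SLC1A4, chr2:64989382-64989409, plus strand: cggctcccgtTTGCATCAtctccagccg
SLC1A5, chr19:46784894-46784921, minus strand: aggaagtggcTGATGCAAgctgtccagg
SLC3A2, chr11:62881726-62881748, plus strand: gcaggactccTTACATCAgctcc
SLC7A1, chr13:29595664-29595691, minus strand: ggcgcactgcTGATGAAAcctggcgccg
SLC38A1, chr12:46266503-46266530, minus strand: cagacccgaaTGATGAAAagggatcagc
Counted from the annotated start, whose first base is 1, the elements began at base -7 in SLC1A4, -97 in SLC1A5, 38 in SLC3A2, 8 in SLC7A1 and -4 in SLC38A1. Of these genes only SLC7A1 has a single annotated window, and the FPKM table does not show which start was used. The genes that held the element did not share a direction, as the values given with each gene show.

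The E-box CACGTG, which reads the same on both strands and is the site of MYC with its partner MAX, is shown because MYC was one of the delivered factors. It lay in 3 of the 8 genes, or 3 of their 15 windows. Of the tested genes with a window 12.7% held it, and of their windows 9.35%. Of 21 other transporter genes 4 held it, and of 17 starvation response genes 2.
SLC7A5, chr16:87869622-87869647, minus strand: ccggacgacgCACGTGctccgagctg
SLC1A5, chr19:46787328-46787353, minus strand: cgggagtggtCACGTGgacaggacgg
SLC43A1, chr11:57515799-57515824, minus strand: gcgggcgagtCACGTGcgcgtgaaac
The antioxidant response element, the site of NRF2, was searched as TGACNNNGC on both strands. It lay in 4 of the 8 genes (SLC3A2, SLC7A1, SLC7A5 and SLC1A5), or 4 of their 15 windows. Of the tested genes with a window 19.6% held it, and of their windows 14.6%. Of 21 other transporter genes 3 held it, and of 17 starvation response genes 6. The match in SLC3A2 is shown because it also holds the letters TGACTCA of an AP-1 site.
SLC3A2, chr11:62881652-62881680, plus strand: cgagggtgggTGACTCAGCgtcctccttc
A match of letters is a description of the window and does not show that a factor was bound.

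**Figure D1:**
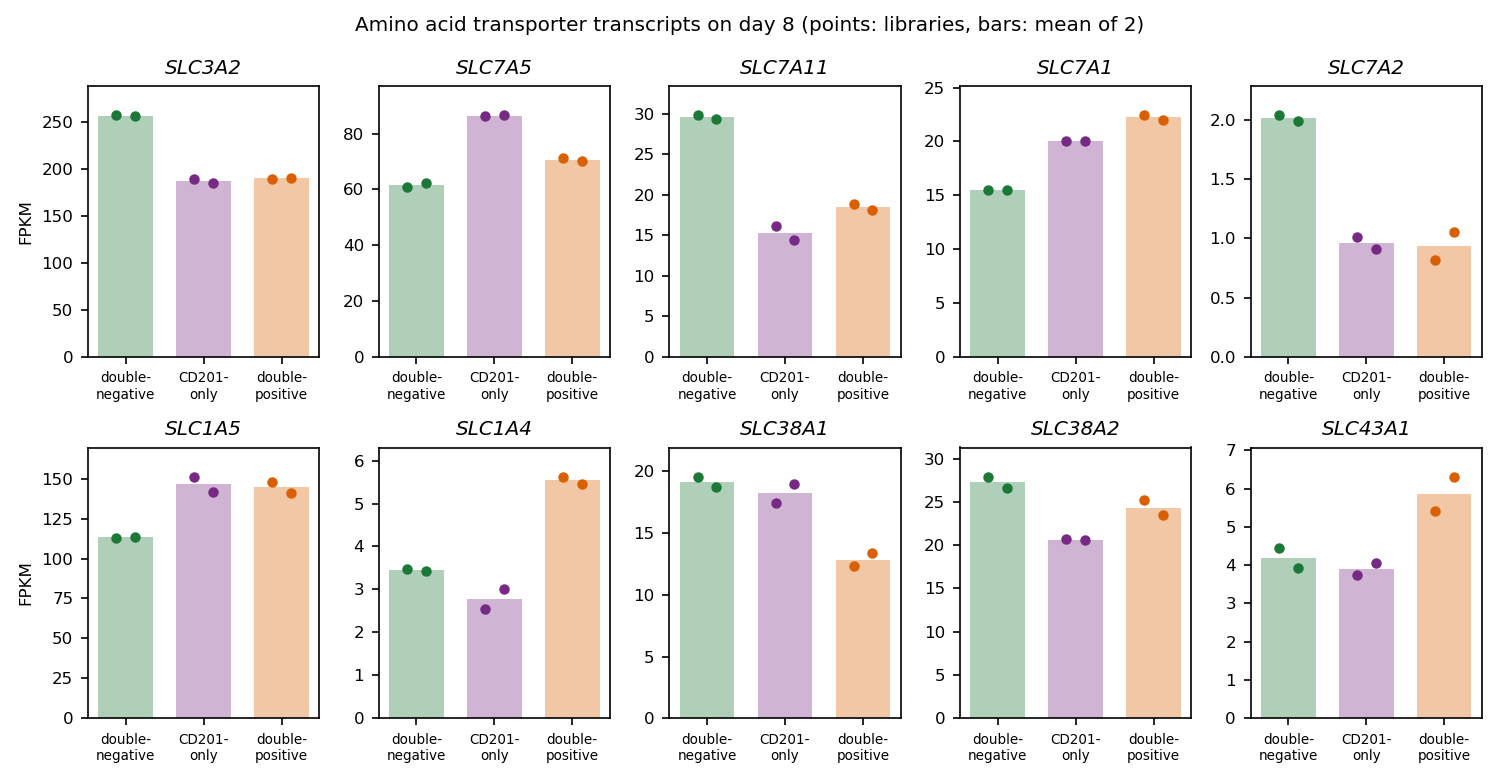
FPKM (vertical axis, from 0, a separate scale per gene) of the 10 transporters in the 3 sorted groups. Points are the libraries and bars the mean of 2. SLC3A2, SLC7A11 and SLC7A2 stood highest in double-negative cells, SLC7A1, SLC7A5 and SLC1A5 stood lowest there, and SLC1A4 and SLC43A1 stood highest in double-positive cells.

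SLC3A2, the CD98 heavy chain, was the most abundant of the 10 and was highest in double-negative cells. Its libraries were at 257 and 256 FPKM in double-negative cells, 189 and 185 in CD201-only cells and 189 and 191 in double-positive cells. Both double-negative libraries stood above all others. The other groups did not overlap but lay close, with means of 187 FPKM in CD201-only cells (SD 2.66) and 190 FPKM in double-positive cells (SD 1.00). Against double-positive cells the transcript rose 1.35-fold in double-negative cells (log2 change 0.43 on the scale of FPKM plus 1, SE 0.0223, limma adjusted p = 4.58e-06). In CD201-only cells the change was -0.02 (SE 0.0223, adjusted p = 0.429). That last difference was called after rescaling by median ratios (-0.09, adjusted p = 0.0153), after quantile normalization (-0.09, adjusted p = 0.00811) and after rescaling to TPM (-0.11, adjusted p = 0.00414).

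SLC7A5 encodes LAT1, the light chain that exchanges leucine and other large neutral amino acids, and it was lowest in double-negative cells. Double-negative libraries were at 60.9 and 62.5 FPKM, CD201-only libraries at 86.2 and 86.7, and double-positive libraries at 71.2 and 70.2. No groups overlapped, and the order was CD201-only, double-positive, double-negative. Against double-positive cells SLC7A5 fell by 0.19 in double-negative cells (SE 0.0274, adjusted p = 0.00066; by 0.30 after median-ratio rescaling) and rose by 0.29 in CD201-only cells (adjusted p = 0.000112). A pseudogene copy, SLC7A5P2, was at 1.42 to 2.83 FPKM, and reads of near-identical copies can be split between them.

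SLC7A11 encodes xCT, the light chain that takes up cystine in exchange for glutamate and so feeds the synthesis of glutathione. Its values were 29.9 and 29.4 FPKM in double-negative, 16.1 and 14.5 in CD201-only and 18.8 and 18.1 in double-positive libraries. The double-negative libraries were the highest and the CD201-only libraries the lowest, with no overlap between groups. The rise in double-negative cells was 1.61-fold against double-positive cells (log2 change 0.66, SE 0.0555, adjusted p = 5.0e-05) and 1.94-fold against CD201-only cells (0.91, adjusted p = 3.16e-05). Between CD201-only and double-positive cells it fell by 0.26 (adjusted p = 0.00619). The antisense transcript SLC7A11-AS1 did not pass 0.0959 FPKM in any library. Whether the counting used strand is not given in the sources used here.

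SLC7A1 and SLC7A2 encode cationic amino acid transporters, which carry arginine, lysine and ornithine, and their transcripts differed in opposite directions. SLC7A1, the widely expressed form, was at 15.5 FPKM in both double-negative libraries, 20.04 and 20.05 in CD201-only libraries and 22.5 and 22.0 in double-positive libraries. The groups did not overlap, and double-positive cells were the highest. Against them SLC7A1 fell by 0.49 in double-negative (SE 0.0372, adjusted p = 2.82e-05) and by 0.14 in CD201-only cells (adjusted p = 0.0141). The latter fall was 0.23 after rescaling to TPM. Its call was lost without CD201-only replicate 1 (adjusted p = 0.0597), without CD201-only replicate 2 (adjusted p = 0.0591) or without double-positive replicate 1 (adjusted p = 0.0563).

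SLC7A2 was the least abundant of the 10. Its libraries were at 2.04 and 1.99 FPKM in double-negative cells, 1.01 and 0.912 in CD201-only cells and 0.815 and 1.05 in double-positive cells. The double-negative libraries stood apart, and the others overlapped. The mean over the 6 libraries was 1.30 FPKM, and the group means were 2.01, 0.961 and 0.933 FPKM in the same order. The gene thus passed the filter of 1 FPKM only through double-negative cells, where it was highest. This limits its calls and the counts of called transporters that include it. SLC7A2 was 2.16-fold higher in double-negative than in double-positive cells (log2 change 0.64, SE 0.0975, adjusted p = 0.000931). With a pseudocount of 0.1 that log2 change was 1.04, and the one against CD201-only cells was 1.00 in place of 0.62. The change of CD201-only against double-positive cells was 0.02 (SE 0.0975, adjusted p = 0.857). As a share of the FPKM of SLC7A1 and SLC7A2 together, SLC7A2 made up 11.5% ± 0.198 in double-negative cells, 4.57% ± 0.314 in CD201-only cells and 4.03% ± 0.749 in double-positive cells (SD, n = 2).

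SLC1A5 encodes ASCT2, an exchanger of glutamine and other neutral amino acids, and was the next most abundant after SLC3A2. Double-negative libraries were at 113 and 114 FPKM, CD201-only libraries at 151 and 142 and double-positive libraries at 148 and 141. Double-negative cells were the low group, and the ranges of the other groups overlapped. In double-negative cells SLC1A5 fell by 0.35 against double-positive cells (SE 0.0384, adjusted p = 0.000198) and by 0.37 against CD201-only cells (adjusted p = 0.000408). The change of CD201-only against double-positive cells was 0.02 (SE 0.0384, adjusted p = 0.688), and its sign depended on the scaling.

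SLC1A4 encodes ASCT1, a related exchanger of alanine, serine and cysteine, and was highest in double-positive cells. It was at 3.48 and 3.43 FPKM in double-negative, 2.55 and 3.01 in CD201-only and 5.63 and 5.46 in double-positive libraries. Both CD13-negative groups lay below the double-positive libraries. SLC1A4 fell by 0.56 in double-negative cells (SE 0.0799, adjusted p = 0.000724) and by 0.79 in CD201-only cells (adjusted p = 0.000146). Between the CD13-negative groups the change was 0.24 (adjusted p = 0.0527). That difference was called with a pseudocount of 0.1 (0.31, adjusted p = 0.0482), after rescaling to TPM (0.29, adjusted p = 0.0399), when limma's variance trend was dropped (0.24, adjusted p = 0.042) and without CD201-only replicate 2 (0.33, adjusted p = 0.0361).

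SLC38A1 and SLC38A2 encode SNAT1 and SNAT2, which take up glutamine, alanine and serine with sodium. SLC38A1 was at 19.6 and 18.7 FPKM in double-negative, 17.4 and 18.9 in CD201-only and 12.3 and 13.3 in double-positive libraries. The double-positive libraries were the lowest, and the CD13-negative groups overlapped. Against double-positive cells it rose by 0.54 in double-negative cells (SE 0.0593, adjusted p = 0.000179) and by 0.47 in CD201-only cells (adjusted p = 0.000438).

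SLC38A2, the form that is known to be induced when amino acids are withdrawn, was at 27.9 and 26.6 FPKM in double-negative, 20.7 and 20.6 in CD201-only and 25.2 and 23.4 in double-positive libraries. CD201-only cells were the lowest group, and no groups overlapped. In CD201-only cells SLC38A2 fell by 0.22 against double-positive cells (SE 0.0467, adjusted p = 0.00516), and it was higher by 0.38 in double-negative than in CD201-only cells (adjusted p = 0.000797). The rise of 0.16 in double-negative against double-positive cells (adjusted p = 0.0188) did not pass after median-ratio rescaling (0.06, adjusted p = 0.345) or rescaling to TPM (0.10, adjusted p = 0.108). It was also lost without double-negative replicate 1 (0.13, adjusted p = 0.117) and without double-positive replicate 2 (0.11, adjusted p = 0.0857).

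SLC43A1 encodes LAT3, a facilitated transporter of leucine and other large neutral amino acids that needs no heavy chain. Its values were 4.46 and 3.94 FPKM in double-negative, 3.75 and 4.06 in CD201-only and 5.41 and 6.32 in double-positive libraries. The double-positive libraries were the highest, and the CD13-negative groups overlapped. SLC43A1 fell by 0.40 in double-negative cells (SE 0.0911, adjusted p = 0.0066) and by 0.48 in CD201-only cells (adjusted p = 0.0033).

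**Figure D2:**
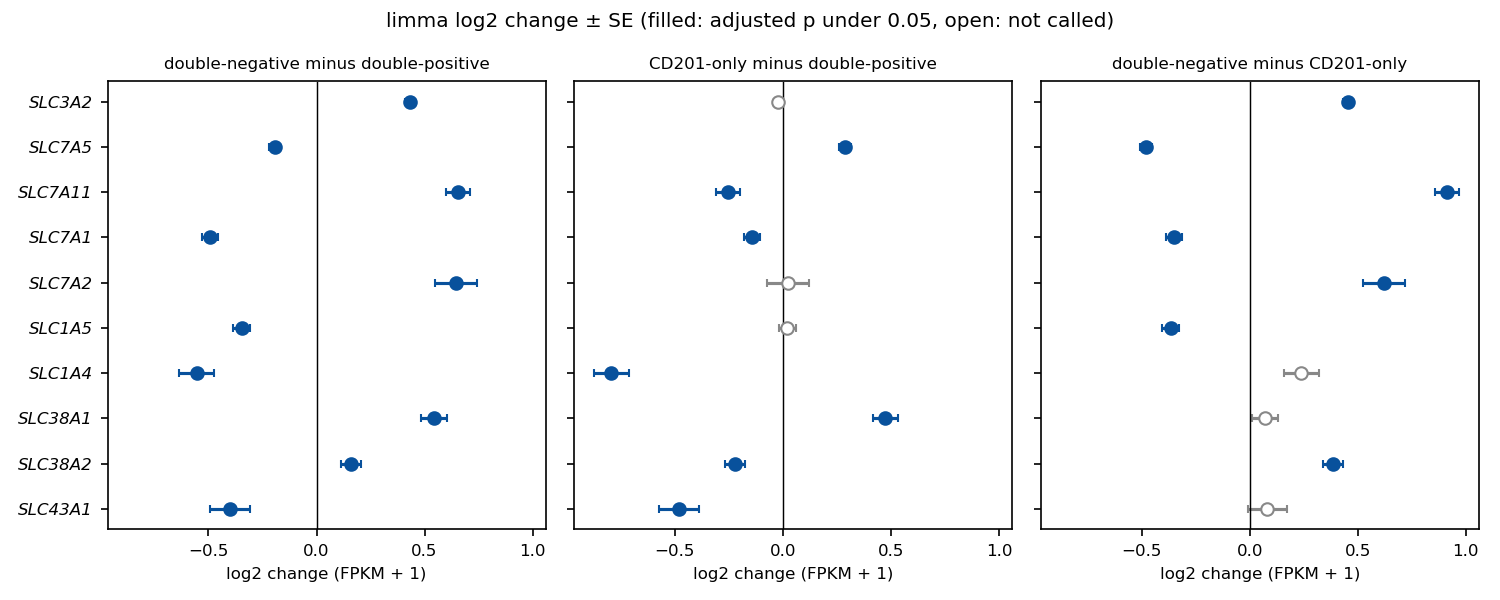
limma log2 change with its SE (horizontal axis, log2 of FPKM plus 1) of each transporter in the 3 comparisons. Filled points passed an adjusted p of 0.05. All 10 were called between double-negative and double-positive cells, 5 in each direction. Of all genes tested 66.6% were called in that comparison, 42.1% higher and 24.5% lower.

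In double-negative against double-positive cells 5 transporters rose (SLC3A2, SLC7A11, SLC7A2, SLC38A1 and SLC38A2) and 5 fell (SLC7A1, SLC7A5, SLC1A5, SLC1A4 and SLC43A1). Of all genes tested 66.6% were called in this comparison, 42.1% higher and 24.5% lower, so a call by itself was common. The median log2 change of the 10 was -0.02 against 0.11 for all genes tested, and the median size of the change, whatever its sign, was 0.46 against 0.28. The groups did not overlap for 10 of the 10, as for 83.3% of genes tested. In this comparison 63.2% of all calls were higher, and 50.2% after median-ratio rescaling.

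In CD201-only against double-positive cells 2 transporters rose (SLC7A5 and SLC38A1), 5 fell (SLC7A11, SLC7A1, SLC38A2, SLC1A4 and SLC43A1) and 3 were not called (SLC3A2, SLC7A2 and SLC1A5). The background was 58.7% of genes called, 35.8% higher and 22.9% lower. The median change was -0.08 against 0.08 for all genes, and the median size of the change was 0.24 against 0.23. The groups did not overlap for 8 of the 10, as for 79.3% of genes tested. Of all calls 61.0% were higher, and 50.95% after median-ratio rescaling or 47.1% after rescaling to TPM. Both comparisons use the same double-positive libraries.

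In double-negative against CD201-only cells 4 rose (SLC3A2, SLC7A11, SLC7A2 and SLC38A2), 3 fell (SLC7A1, SLC7A5 and SLC1A5) and 3 were not called. The latter were SLC1A4, SLC38A1 (0.07, adjusted p = 0.388) and SLC43A1 (0.08, adjusted p = 0.514). Here 37.9% of genes were called, 21.5% higher and 16.5% lower, and the median size of the change was 0.38 for the transporters and 0.14 for all genes. The groups did not overlap for 8 of the 10, as for 71.9% of genes tested. Higher calls made up 56.6% of the total, 46.4% after median-ratio rescaling. By the F test all 10 differed among the 3 groups, as did 73% of genes tested.

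The CD98 light chains were set beside their heavy chain, since both kinds of value are per length. The light chains measured were SLC7A5, SLC7A11, SLC7A8 (LAT2, neutral amino acids), SLC7A6 and SLC7A7 (cationic for neutral exchange) and SLC7A10, which was listed at 0 in all libraries. SLC7A8 also rose in double-negative cells, from 19.3 and 18.8 FPKM in double-positive libraries to 39.2 and 39.8 (log2 change 1.01, SE 0.0377, adjusted p = 1.09e-06). It stood between them in CD201-only libraries, at 29.5 and 28.2 FPKM (0.57 against double-positive cells, adjusted p = 1.76e-05). SLC7A6 was at 9.18 to 11.4 FPKM, and its rise of 0.20 in CD201-only against double-positive cells (adjusted p = 0.0316) was lost without either CD201-only replicate 1 (adjusted p = 0.107) or CD201-only replicate 2 (adjusted p = 0.0968). Without double-positive replicate 1 it was 0.12 (adjusted p = 0.139), and after rescaling to TPM 0.12 (adjusted p = 0.166). SLC7A7 was at 0.755 to 1.26 FPKM.

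The summed light chain level was 141 ± 1.27 FPKM in double-negative cells, 143 ± 2.18 in CD201-only cells and 119 ± 0.679 in double-positive cells (SD, n = 2). SLC7A5 made up 43.65% ± 0.396 of that sum in double-negative cells, 60.5% ± 1.14 in CD201-only cells and 59.3% ± 0.226 in double-positive cells. The share of SLC7A11 was 21.0% ± 0.41, 10.7% ± 0.665 and 15.5% ± 0.346, and that of SLC7A8 27.95% ± 0.0212, 20.2% ± 0.332 and 15.99% ± 0.184, in the same order. The light chain sum in double-negative cells thus held less SLC7A5 and more SLC7A8 and SLC7A11 than in the other groups.

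SLC3A2 stood at 1.83 and 1.80 times the light chain sum in double-negative libraries, 1.31 and 1.31 times in CD201-only libraries and 1.58 and 1.61 times in double-positive libraries. The 3 groups did not overlap. The ratio is given as a description: an exact permutation test of 2 libraries against 2 cannot go below p = 0.333, and no model was fitted to it. Over SLC7A5 and SLC7A11 alone the ratios were 2.81 ± 0.0361, 1.84 ± 0.0099 and 2.13 ± 0.0396, in the same order of groups.

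**Figure D3:**
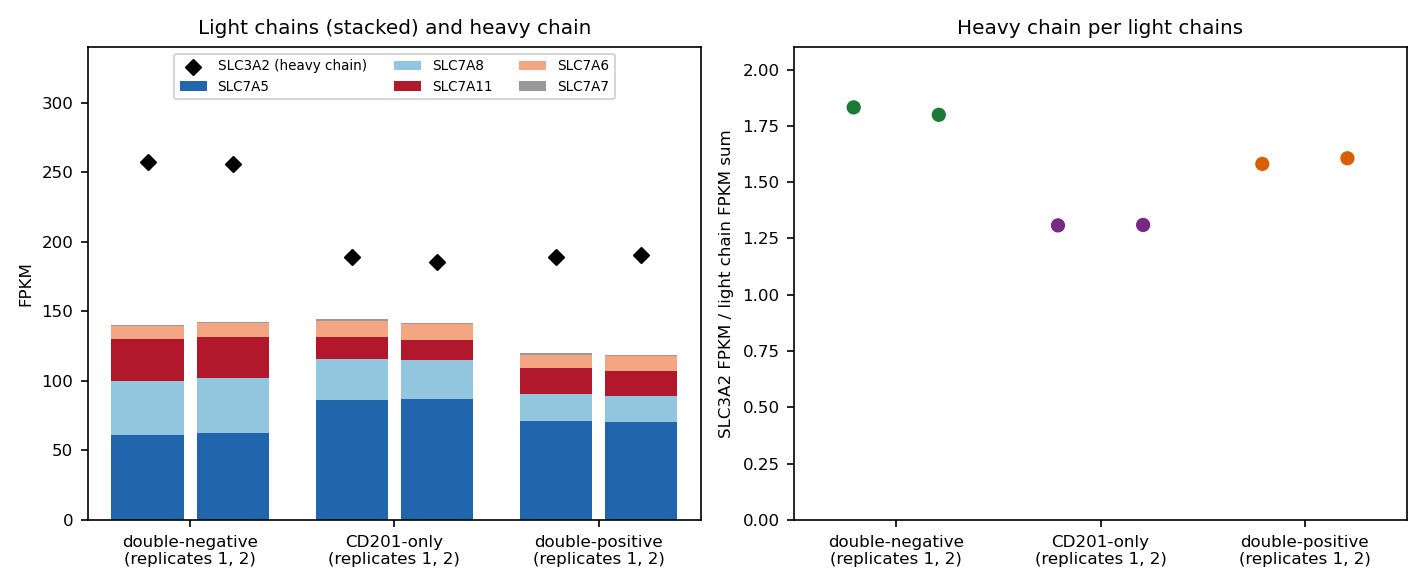
Left, FPKM of the CD98 light chains stacked per library (bars) and of the heavy chain SLC3A2 (diamonds). Right, SLC3A2 FPKM divided by the light chain sum, per library, from 1.31 in CD201-only to 1.83 in double-negative cells; both vertical axes start at 0.

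Of 28 other plasma membrane amino acid transporters, 7 were expressed highly enough to test. In double-negative against double-positive cells 2 rose and 2 fell, with 4 lower after median-ratio rescaling and 4 higher with no filter, which tests more genes. In CD201-only against double-positive cells 4 rose and 2 fell. The 4 rises became 2 under median-ratio rescaling, under rescaling to TPM, and without either CD201-only replicate 1 or CD201-only replicate 2. SLC6A6, the taurine transporter, was the most abundant of them at 83.55 ± 1.85 FPKM in double-negative cells, 103 ± 0.792 in CD201-only cells and 87.65 ± 1.05 in double-positive cells. It rose by 0.23 in CD201-only cells (adjusted p = 0.000357). SLC38A5, which carries glutamine, fell from 11.0 FPKM in double-positive cells to 5.77 in double-negative (-0.83, adjusted p = 1.77e-05) and 6.49 in CD201-only cells (-0.68, adjusted p = 5.55e-05). SLC6A9, the glycine transporter, fell by 0.56 and by 0.94. SLC43A2, a relative of SLC43A1, rose by 0.32 in double-negative cells (adjusted p = 0.0066) and by 0.25 in CD201-only cells (adjusted p = 0.0197), where SLC43A1 fell. The second of these rises was lost without CD201-only replicate 1 or 2 or double-positive replicate 2, with adjusted p of 0.0783, 0.0675 and 0.0869, and after median-ratio rescaling (adjusted p = 0.0565) or rescaling to TPM (adjusted p = 0.0739).

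Among 118 tested genes of amino acid handling, the nearest to SLC7A11 by its log2 changes against double-positive cells was ASNS, asparagine synthetase, at a distance of 0.0933. ASNS was at 10.4 and 11.0 FPKM in double-negative, 5.06 and 6.62 in CD201-only and 6.51 and 7.13 in double-positive libraries. Next came SLC7A2 and SLC3A2, at 0.28 and 0.325. For SLC3A2 they were CBS, which starts the path from homocysteine to cysteine, OAT, ornithine aminotransferase, and TRIB3, a pseudokinase that ATF4 induces, at 0.108 to 0.115. SLC7A5 had SESN3, a sestrin of low level, SLC6A6 and SLC7A6 nearest, at 0.0643 to 0.202. The distance is taken over 2 changes that share the double-positive libraries, and it describes likeness of these changes, not of levels.

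Other genes of amino acid handling were counted by list, to be read against all genes tested, of which 42.1% rose and 24.5% fell in double-negative cells (median 0.11) and 35.8% rose and 22.9% fell in CD201-only cells (median 0.08), each against double-positive cells. The amino acid starvation response list held 22 genes, all tested. In double-negative cells 13 rose and 4 fell, with a median of 0.18, and in CD201-only cells 7 rose and 7 fell, with a median of 0.02. Under median-ratio rescaling 8 of the list fell in double-negative cells in place of 4. ATF4 itself was at 413 ± 4.62 FPKM in double-negative cells, 407.5 ± 2.36 in CD201-only cells and 376 ± 1.07 in double-positive cells, and was named after its values were seen. CEBPB, a transcription factor that pairs with ATF4, fell by 1.29 in double-negative and by 1.35 in CD201-only cells. CHAC1, which degrades glutathione, fell by 0.53 in double-negative and by 1.30 in CD201-only cells, from 19.9 to 13.5 and 7.47 FPKM. NUPR1, a stress-induced chromatin protein, fell by 1.16 and by 0.81, in the same order. Naming by size thus picked only falls here, though rises were more frequent in double-negative cells. CTH rose by 1.11 in double-negative cells, from 8.84 to 20.2 FPKM, and by 0.48 in CD201-only cells. PHGDH rose by 0.83 and by 0.80. Both were named after their values were seen.

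Genes of cystine use and glutathione, the path that SLC7A11 feeds, changed in both directions. Of 16 tested genes 3 rose and 4 fell in double-negative cells (median 0.01), and 4 rose and 6 fell in CD201-only cells (median 0.01). Without double-negative replicate 1 only 2 fell in double-negative cells. GSR, glutathione reductase, rose by 0.58 in double-negative and by 0.41 in CD201-only cells. CHAC2, a relative of CHAC1, rose by 0.58 and by 0.63, in the same order. In CD201-only cells HMOX1, heme oxygenase, fell by 0.91, from 31.4 to 16.2 FPKM, and GGT1, which splits extracellular glutathione, rose by 0.73, from 4.68 to 8.39 FPKM.

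Enzymes that act on glutamine and arginine, substrates of these carriers, were counted next. Of 12 tested enzymes of glutamine and glutamate 9 rose and 1 fell in double-negative cells (median 0.34), and 8 rose and 3 fell in CD201-only cells (median 0.26). GPT2, mitochondrial alanine aminotransferase, rose by 0.66 in double-negative and by 0.40 in CD201-only cells. GFPT2, which uses glutamine to make hexosamines, fell by 2.09 and by 0.92, from 31.8 to 6.70 and 16.4 FPKM, in the same order. GLUL, glutamine synthetase, was at 41.8 FPKM in double-negative cells, 21.5 in CD201-only cells and 38.0 in double-positive cells. It fell by 0.79 in CD201-only cells (adjusted p = 1.89e-06).

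Of 13 tested arginine and polyamine enzymes 9 rose and 3 fell in double-negative cells (median 0.28) and 7 rose and 4 fell in CD201-only cells (median 0.10, near the 0.08 of all genes). The 7 rises became 4 without double-positive replicate 1. SMS, spermine synthase, rose by 1.05 in double-negative cells, from 63.3 to 132 FPKM, and by 0.61 in CD201-only cells. NOS3, endothelial nitric oxide synthase, fell by 2.62 in double-negative cells, from 24.7 to 3.18 FPKM, and by 1.09 in CD201-only cells. ASS1, which remakes arginine from citrulline, fell by 0.83 in double-negative and by 0.86 in CD201-only cells.

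Among branched-chain amino acid enzymes 4 of 9 were higher and 2 lower in double-negative cells (median 0.07) and 4 were higher and 1 lower in CD201-only cells (median 0.14). BCAT1, the cytosolic transaminase of leucine, isoleucine and valine, fell by 0.34 in double-negative cells, and MCCC2, a subunit of a leucine-degrading carboxylase, rose by 0.40. In CD201-only cells its partner subunit MCCC1 fell by 0.30 (adjusted p = 0.0539 when CD201-only replicate 1 was left out), and BCAT2, the mitochondrial transaminase, rose by 0.24. These counts were small and moved with several settings: 1 was higher in double-negative cells after median-ratio rescaling and 2 without double-negative replicate 2. In double-negative cells 1 was lower with no variance trend and without double-negative replicate 1, double-positive replicate 1 or double-positive replicate 2. In CD201-only cells 2 were higher without CD201-only replicate 2 or after median-ratio rescaling, 1 was higher and 2 were lower after rescaling to TPM, and 0 were lower without CD201-only replicate 1.

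Of 30 tested genes of amino acid sensing at the lysosome 8 rose and 5 fell in double-negative cells (median 0.02), and 12 rose and 3 fell in CD201-only cells (median 0.04). RRAGD, a Rag GTPase that recruits the growth kinase mTORC1, rose by 1.27 and by 0.71, from 3.41 FPKM in double-positive to 9.65 in double-negative and 6.20 in CD201-only cells. Its relative RRAGB fell by 0.38 in CD201-only cells, and SESN1, a leucine-sensing sestrin, rose by 0.49 in double-negative cells. In double-negative cells the 5 falls became 3 without double-negative replicate 1, 2 without double-negative replicate 2 and 3 without double-positive replicate 2. After median-ratio rescaling 5 rose and 8 fell there, and after rescaling to TPM 6 rose in CD201-only cells.

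**Figure D4:**
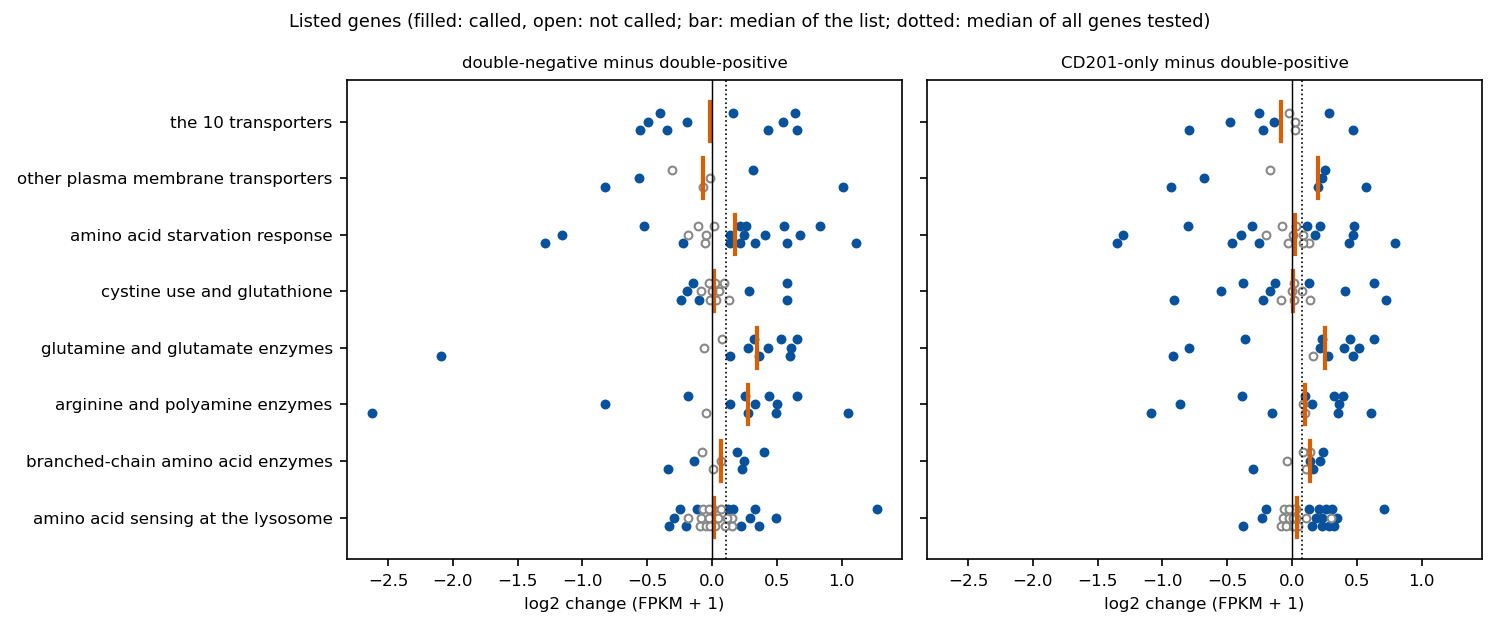
limma log2 change (horizontal axis, log2 of FPKM plus 1) of each tested gene of the lists, against double-positive cells. Filled points were called, orange bars mark each list's median and the dotted line the median of all genes tested; the 10 transporters lay on both sides of 0.

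Other features of the libraries moved with the groups, and their part in the transporter results was not tested. Of 9 tested fibroblast markers 8 fell in double-negative and 9 in CD201-only cells against double-positive cells. THY1 was the fibroblast marker that rose in double-negative cells (1642 against 1370 FPKM, log2 change 0.26, limma adjusted p = 2.61e-05). All 8 tested pluripotency markers rose in both, and all 12 S-phase genes rose in both (MCM6, a subunit of the replication helicase, by 1.04 in double-negative cells). Of all genes tested 42.1% rose and 24.5% fell in double-negative cells, and 35.8% rose and 22.9% fell in CD201-only cells. Summed levels of 10 fibroblast markers were 4226 to 4227 FPKM in double-negative, 3759 to 3779 in CD201-only and 8422 to 8526 in double-positive libraries. Those of 10 pluripotency markers were 312 to 315.5 and 86.3 to 90.3 FPKM in double-negative and double-positive libraries and up to 200.2 FPKM in CD201-only libraries, and those of 12 S-phase genes, in the order of the fibroblast markers, 819 to 832, 858 to 866 and 544 to 550 FPKM. The 7 keratinocyte markers summed to 10.5 to 11.4, 19.2 to 19.5 and 42.7 to 44.0 FPKM. Among them KRT14 was highest in double-positive cells (1.82, 2.72 and 29.7 FPKM), KRT5 was highest in CD201-only cells (2.23, 9.79 and 5.93 FPKM), KRT10 was at 6.81, 6.77 and 7.21 FPKM, and TP63 was at no more than 0.0405 FPKM. The 6 blood markers summed to 22.4 to 23.7, 11.3 to 12.8 and 34.9 to 36.1 FPKM, mostly from CD14 (19.8, 8.94 and 32.9 FPKM), with CD3E listed at 0. The 5 endothelial markers summed to 17.2 to 17.6, 26.1 to 28.1 and 19.7 to 21.5 FPKM, mostly from TEK (13.7, 25.5 and 19.0 FPKM). KDR, of the same list, was highest in double-negative cells (3.06, 0.959 and 0.593 FPKM), and PECAM1 was at no more than 0.0677 FPKM. The 8 epithelial markers, led by the keratins KRT8 and KRT18, summed to 3091 to 3103, 4041 to 4111 and 2046 to 2116 FPKM. Of 6 tested, 5 rose and 1 fell in double-negative cells and 6 rose in CD201-only cells, against double-positive cells. The marker that fell was KRT19, at 27.1, 67.1 and 34.6 FPKM. The delivered factors did not move together. POU5F1, which encodes OCT4, was at 893 ± 3.13, 521 ± 14.3 and 524 ± 16.2 FPKM and SOX2 at 747 ± 0.351, 464 ± 14.1 and 450.1 ± 2.77 FPKM, both highest in double-negative cells. KLF4 was at 166 ± 1.81, 169 ± 1.93 and 223 ± 6.0 FPKM and MYC at 128 ± 0.0919, 137 ± 2.44 and 175 ± 2.47 FPKM, both highest in double-positive cells. Whether reads from the vectors were counted in them was not tested. In such bulk libraries fewer cells of a type and less RNA per cell cannot be told apart.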

How the data were processed

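Poly-A RNA of 6 libraries, 3 sorted groups of 2, was sequenced with a stranded kit according to the labels' protocols. Per the submitters' processing notes the authors made their single deposited FPKM table with STAR and Cuffnorm, and the builds named are hg19 and GRCh37. Annotation, options, versions and any rescaling by Cuffnorm are not stated there, and values were used as deposited. Tests ran on log2 of FPKM plus a pseudocount of 1, for genes averaging 1 FPKM or more, with limma 3.58.1 in R 4.3.3. The model had 1 coefficient per group, a variance trend, 3 residual and 3.95 prior degrees of freedom. Each comparison was adjusted by Benjamini-Hochberg over all 12210 genes and called at an adjusted p under 0.05; log2 changes understate folds of low genes. The fit was also run on simulated data in which a small set of genes changed, in double-negative cells only. Far more genes were called in the real comparisons, so that run does not bear on the wide shifts there. Tables and plots used Python 3.11.15, pandas 2.3.3, numpy 2.4.6 and matplotlib 3.10.9.

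The 10 transporters and the gene lists were chosen with earlier results of these data known. Named genes are the 10 transporters and, from each other list, the 2 called genes with the largest change against double-positive cells in each comparison. Other transporters with a mean of at least 5 FPKM in a group, and the 3 genes nearest to SLC7A11, SLC7A5 and SLC3A2, were added. Genes named by level or as markers, and CTH and PHGDH, were chosen after their values were seen. In the lists 2 older symbols were matched through RefSeq synonyms (CASTOR1 and CASTOR2). Depth was compared by the commonest ratio between libraries of values under 0.15 FPKM. Alternatives changed the pseudocount, filter, scaling, variance model, libraries used and replicate block. 0 columns were left unassigned.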

Additional observations from a re-analysis of the deposited data

How the results depend on the processing

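Each of the 30 log2 changes of the transporters was recomputed under 16 alternatives, and 24 kept direction and side of the threshold throughout. Of 480 values 457 did so, 7 lost a call, 7 gained one and 9 changed sign. Alternatives that changed only the filter or the variance model, added the replicate block or left out libraries not compared could not alter direction. They left the log2 change as it was and could only move its adjusted p, so direction was tried by the other alternatives alone. The sign changes were in uncalled differences of CD201-only against double-positive cells. SLC7A2 turned to -0.0092 under median-ratio rescaling and -0.028 under TPM, and ranged from -0.066 (without double-positive replicate 1) to 0.11 as libraries were left out, with -0.013 without CD201-only replicate 1. SLC1A5 turned to -0.046, -0.028 and -0.071 under median-ratio rescaling, quantile normalization and TPM, and ranged from -0.028 (without CD201-only replicate 1) to 0.067 as libraries were left out, with -0.015 without double-positive replicate 2. Among other named genes SLC7A6 in double-negative against double-positive cells ranged from -0.095 without double-positive replicate 1 to 0.071 without double-positive replicate 2. SLC6A6, not called in that comparison, was called lower under median-ratio rescaling (-0.17), quantile normalization (-0.12) and TPM (-0.14). The causes were not tested.

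Left-out libraries gave 4 to 5 transporters higher and 5 lower in double-negative against double-positive cells, 2 higher and 4 to 5 lower in CD201-only against double-positive cells, and 4 to 5 higher and 3 lower in double-negative against CD201-only cells. With all 6 libraries 66.6%, 58.7% and 37.9% of all genes tested were called in these comparisons, in the same order. By the F test 73% of genes tested differed with all 6 libraries, as did all 10 transporters. Shares of all genes with a library left out are not given here. With a library left out, a group's ratio of SLC3A2 to the light chains is that of its other library, already given above. The ratio ranged from 1.80 to 1.83 in double-negative, 1.308 to 1.31 in CD201-only and 1.58 to 1.61 in double-positive cells. Over SLC7A5 and SLC7A11 alone it was 2.81, 1.84 and 2.13, because fewer genes are summed.

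Whether an equal replicate number in different groups marks a shared culture or sort is not known here. Replicate differences correlated across genes by 0.0761, -0.0727 and 0.117 between groups, and such correlations cannot exclude it. With the replicate block 5 transporters were higher and 5 lower in double-negative against double-positive cells, as without it, and the block changed no call of a transporter. Counts for the other gene lists under the alternatives were added after seeing the data. Low levels limit precision: genes from 1 to 10 FPKM, among them SLC1A4 and SLC43A1, had a median replicate variation of 5.21% to 6.28%. Single genes spread more or less than this by group. SLC1A4 was at 2.78 ± 0.327 FPKM in CD201-only and 3.46 ± 0.0377 in double-negative cells (SD, n = 2). In double-positive cells SLC43A1 was at 5.86 ± 0.641 FPKM and SLC7A2, lower still, at 0.933 ± 0.167.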
